A study of Saccharomyces cerevisiae with 6 samples.

Results

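The genes described here encode the subunits of the yeast proteasome, together with 3 proteins that help it assemble or bind to it and RPN4, the transcription factor of the set. Members were picked by a rule on the gene symbol alone (PRE, PUP, SCL1, RPT, RPN, UMP1, BLM10 and ECM29), which gave 36 genes, carried by 37 array features, of 6470 genes or unnamed features in all. Of the 36 genes, 14 encode the core particle, 18 encode the regulatory cap, 3 encode helpers (UMP1, BLM10 and ECM29) and 1 is RPN4.

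The proteasome is the large protease that degrades proteins tagged with ubiquitin. Its core is a barrel of stacked rings, in which alpha subunits form the gate and beta subunits hold the proteolytic sites, and its cap recognises tagged proteins, removes the ubiquitin and unfolds the substrate with a ring of ATPases. In yeast, Rpn4 is known to activate the proteasome genes through an element in their promoters, and Rpn4 itself is a short-lived protein that the proteasome destroys, so that its own activity is set to a large extent by protein turnover.

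Saccharomyces cerevisiae, of a strain that the labels do not name, was grown without oxygen to exponential phase in a complete synthetic medium, to which the ergosterol and unsaturated fatty acids that it cannot make without oxygen had been added, and total RNA was compared by 2-colour microarray. RNA from cells aerated for 5, 10, 20, 60 or 120 min was set against a pool of RNA drawn from all cultures at 0 min, before aeration, and a sixth sample compared that pool with itself. Each aeration time is 1 sample from its own flask, with the arrays of both dye orientations condensed into 1 set of values, so that no error and no test can be given for any one time. The self-hybridisation is a single array. All values below are log2 ratios of aerated over pool RNA, in which the pool is 0 by construction, a value of 1 is a 2-fold higher level and a value of -1 a 2-fold lower level. Ratios say nothing of which gene has more transcript. The direction is likely rather than settled, because the labels name both dyes in both channels, and the log base was read from the values.

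The 60 min sample stood apart from the other times. Its log ratios were spread more widely, with 24.3% of genes at least 2-fold from the pool, against 2.09% to 4.96% at the other times and 4.00% in the self-hybridisation, and the text on its RNA extraction speaks of 20 min although its other labels say 60 min. One description is also at odds in the 5 min sample, where it is that of the self-hybridisation, and there the group was taken from the title and the channel's source. For the sets, for RPN4 and for several genes far from the pool at 60 min, the percentile among all genes of that sample is therefore given as well, and the tests are also given without it. Of the 36 genes, 35 had a value at all 5 times, PUP1 lacked one at 5 min, and 30 had a value in the self-hybridisation. Over all genes the self-hybridisation had 3521 values, against 5883 to 6292 in the aerated samples. Its shares, spread and percentiles thus rest on fewer genes. How much of the proteasome pattern at 60 min comes from what sets this sample apart was not tested.

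Transcripts of the proteasome subunits and helpers were above the anaerobic pool at 10 and 20 min, mostly below it at 60 min and close to it at 120 min. Over the 35 genes other than RPN4 the median log2 ratio was 0.11, 0.39, 0.47, -0.61 and -0.02 after 5, 10, 20, 60 and 120 min, and it was 0.04 in the self-hybridisation. In such bulk samples, fewer cells with a transcript and less of it per cell cannot be told apart. The median over all genes lay between -0.01 and 0.09 in each aerated sample. At 10 min, 33 of the 35 genes were above 0, against 50.0% of all genes, and at 20 min again 33 of 35, against 49.8% of all genes. At 60 min only 5 of the 35 (RPT6, PUP3, PRE8, RPN10 and RPN13) were above 0, against 54.4% of all genes, and at 120 min 17 were, against 48.6%. At 5 min 26 of the 34 genes with a value were above 0, against 50.1%.

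**Figure D1:**
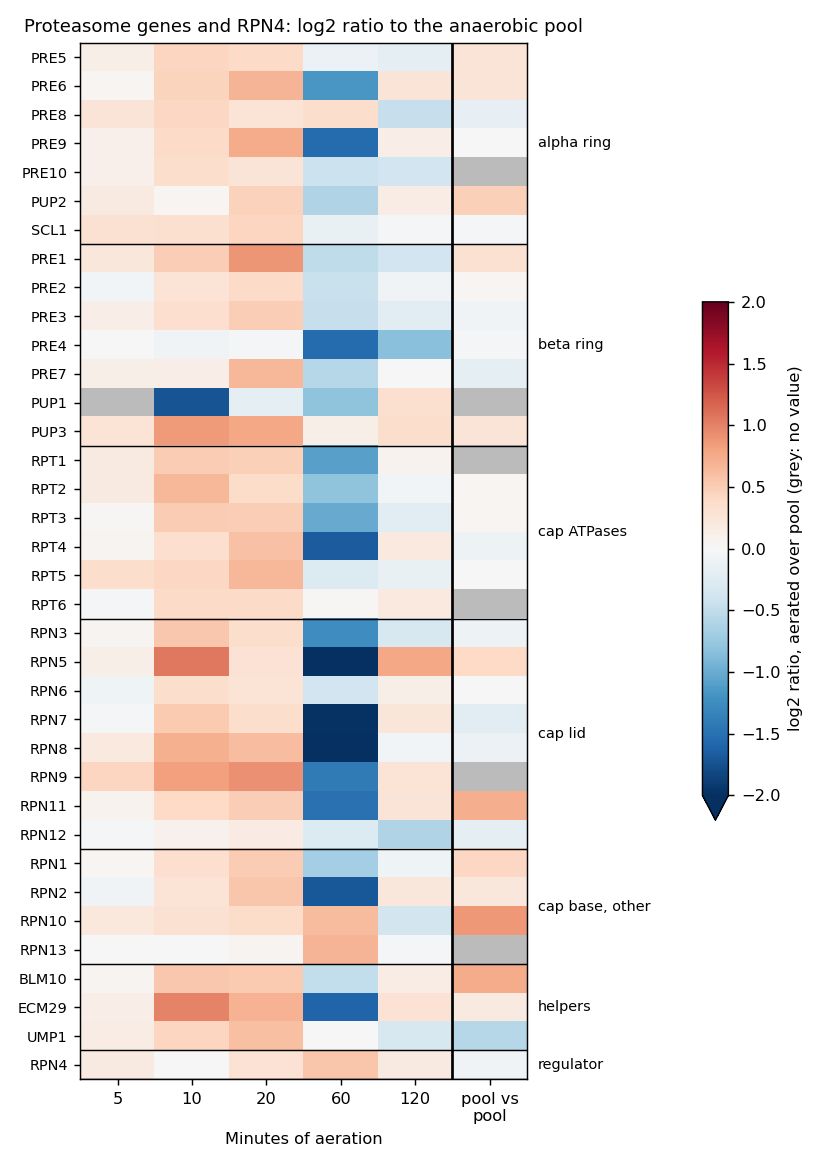
Log2 ratio to the anaerobic pool of each of the 36 genes (down the page, grouped by role) at 5 to 120 min of aeration and in the self-hybridisation of the pool (last column); red is higher and blue lower than the pool, grey is no value, and colours end at -2 and 2. The 10 and 20 min columns are red for most subunits, the 60 min column is blue for most of them, and RPN4, in the bottom row, is palest at 10 min and most red at 60 min.

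Few members were as much as 2-fold from the pool at 10 and 20 min, and many were at 60 min. The SD between the 35 genes was 0.44 at 10 min, with PUP1 far below the others at -1.72, 0.24 at 20 min and 0.90 at 60 min. For all genes a different measure of spread (1.4826 times the median absolute deviation) was 0.36, 0.34 and 0.82 at those times. Single far genes raise the SD more than this measure, so the values are not like for like. At 10 min 1 gene was at least 2-fold higher (RPN5) and 1 at least 2-fold lower (PUP1), against 2.2% and 2.76% of all genes. At 20 min no member reached 2-fold, against 2.24% of all genes higher and 2.5% lower, yet the median gene of the set stood at the 89.1 percentile of that sample. At 60 min 14 of the 35 were at least 2-fold lower, against 12.9% of all genes, and none was 2-fold higher, against 11.4%. The median percentile of the 35 genes was 65.8, 85.5, 89.1, 22.1 and 48.9 at 5, 10, 20, 60 and 120 min, and 55.2 in the self-hybridisation. No member was 2-fold from the pool at 5 min, where 1.08% of all genes were higher and 1.01% lower, or at 120 min, where 1.47% were higher and 1.72% lower.

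The order of the times was much the same from gene to gene. Of the 34 genes with all 5 values, 15 were highest at 10 min, against 14.0% of all genes, and 16 at 20 min, against 13.3%. The remaining 3 were PRE4, highest at 5 min, and RPN10 and RPN13, highest at 60 min as were 40.0% of all genes. The lowest value fell at 60 min in 27 of the 34, against 33.0% of all genes. A value above 0 at both 10 and 20 min and below 0 at 60 min was found for 28 of the 34, against 13.8% of all genes, and the 6 others were PRE4, PRE8, PUP3, RPN10, RPN13 and RPT6. Because this count uses the 60 min sample, the 120 min sample is also given alone. At 120 min 21 of the 34 genes were below each of their values at 5, 10 and 20 min, against 27.0% of all genes, and at 60 min 30 were, against 35.8%.

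RPN4, the known activator of these genes, was itself close to the pool at most times. Its log2 ratio was 0.18, -0.01, 0.29, 0.55 and 0.17 after 5, 10, 20, 60 and 120 min, and -0.08 in the self-hybridisation. It was thus lowest at 10 min, when the subunit genes were already high, and highest at 60 min, when most of them were low. No value of RPN4 reached 2-fold. Only the 60 min value exceeded 0.36, the spread over genes in the self-hybridisation (1.4826 times the median absolute deviation). Over the genes of the 60 min sample itself that spread was 0.82. Within the wide 60 min sample RPN4 stood at the 72.7 percentile, close to its 75.2 percentile at 5 min, 79.3 at 20 min and 69.9 at 120 min, while at 10 min it stood at 48.6. With samples scaled to the same spread, RPN4 was highest at 20 min, at 0.29, and not at 60 min, at 0.23.

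Set against the core and the cap, RPN4 lay 0.35 below the core median and 0.42 below the cap median at 10 min, as differences of log2 ratios. At that time 2 of 14 core genes and 0 of 18 cap genes were below it. At 60 min the gap was the other way, with RPN4 1.04 above the core median and 1.60 above the cap median, above all 14 core genes and above 16 of the 18 cap genes, the exceptions being RPN10 and RPN13. The gaps at 5 min were 0.07 and 0.13, those at 20 min -0.16 and -0.14, and those at 120 min 0.23 and 0.15, in each case RPN4 minus the core median and then the cap median. In the self-hybridisation both were -0.10. The 60 min gaps are in the units of a sample with a wider spread. With samples scaled to the same spread, RPN4 was at 0.23 at 60 min, the core median at -0.21 and the cap median at -0.44. These are values of 1 gene and of medians over genes in single samples, and no test was made of them.

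**Figure D2:**
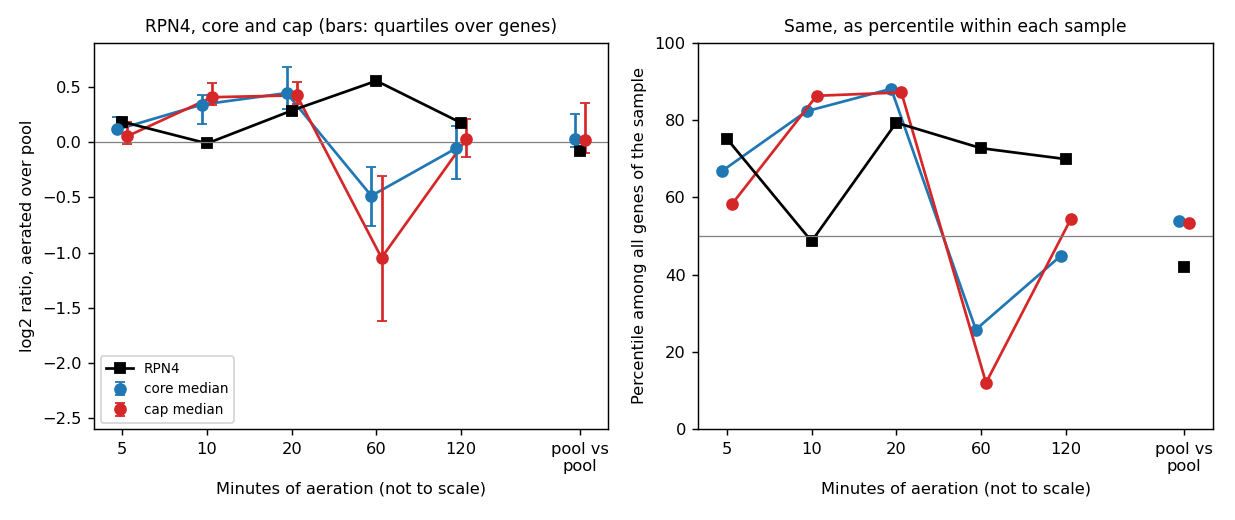
Log2 ratio to the pool (left) and percentile among all genes of the sample (right) of RPN4, of the core median and of the cap median at each aeration time, with the self-hybridisation at the right of each panel; bars are quartiles over the genes of a group, 14 core genes (13 at 5 min, 12 in the self-hybridisation) and 18 cap genes (14 in the self-hybridisation). Core and cap medians run together to 20 min and drop at 60 min to the 25.8 and 12.0 percentiles, while RPN4 is at 48.6 at 10 min and between 69.9 and 79.3 at the other times.

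Core and cap genes ran close together up to 20 min and at 120 min. Cap medians were 0.05, 0.41, 0.42, -1.05 and 0.02 at 5, 10, 20, 60 and 120 min, and core medians were 0.11, 0.34, 0.44, -0.49 and -0.06. The cap minus core difference was within -0.06 to 0.08 at every time but 60 min, when it was -0.56. At 60 min 10 of 18 cap genes and 3 of 14 core genes were at least 2-fold lower than in the pool, against 12.9% of all genes. On the percentile scale, which takes away the width of that sample, the median cap gene stood at 12.0 and the median core gene at 25.8.

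**Figure D3:**
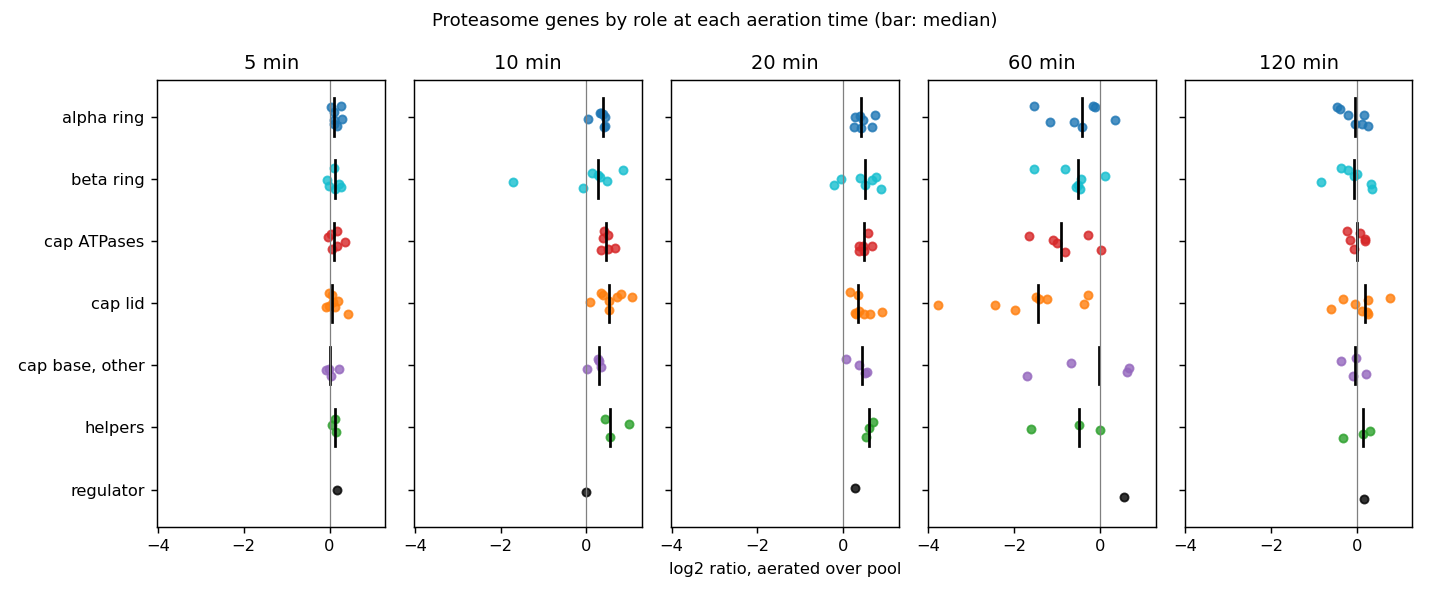
Log2 ratio to the pool of each gene (points, with vertical scatter only to separate them) by role at the 5 aeration times, with the median of each role as a vertical bar. The roles overlap up to 20 min; at 60 min the points fan out, with lid genes down to -3.78 and RPN13, RPN10 and RPN4 between 0.55 and 0.68.

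Among the alpha subunits of the core, all 7 were above the pool at 5, 10 and 20 min, with ranges of 0.03 to 0.30, 0.04 to 0.44 and 0.26 to 0.74. SCL1, the first alpha subunit of the ring, had 0.30, 0.32, 0.42, -0.15 and -0.04 at 5, 10, 20, 60 and 120 min, and -0.04 in the self-hybridisation. PRE9, the alpha subunit that yeast can live without and that has a part in gating the barrel, had 0.10, 0.38, 0.74, -1.54 and 0.13, and 0.01 in the self-hybridisation. Its 60 min value is a 2.91-fold lower level, at the 5.6 percentile of that sample, and the lowest of the ring, whose other 60 min values ran from -1.16 (PRE6) to 0.36 (PRE8). PRE5 had 0.11, 0.43, 0.39, -0.12 and -0.20, and 0.26 in the self-hybridisation. PUP2 had 0.18, 0.04, 0.47, -0.61 and 0.16, and 0.48 in the self-hybridisation, as large as its highest value under aeration. PRE8 alone of the ring was above the pool at 60 min, and it was the lowest at 120 min, at -0.46.

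The beta ring holds the catalytic subunits Pre3, Pup1 and Pre2. PRE2, which encodes the chymotrypsin-like subunit, had -0.05, 0.28, 0.39, -0.44 and -0.08 at 5, 10, 20, 60 and 120 min, and 0.05 in the self-hybridisation. PRE3, of the caspase-like subunit, had 0.13, 0.33, 0.50, -0.46 and -0.22, and -0.07 in the self-hybridisation. Both thus took the course of the set, above the pool at 10 and 20 min and below it at 60 min. PUP1, of the trypsin-like subunit, did not: it had -1.72, -0.20, -0.81 and 0.32 from 10 min on, and no value in the 5 min sample or the self-hybridisation. Its 10 min level, 3.29-fold lower than in the pool, is the lowest of any member at that time.

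Structural beta subunits were divided. PRE1 had 0.23, 0.49, 0.89, -0.51 and -0.38 at 5, 10, 20, 60 and 120 min, and 0.30 in the self-hybridisation, the highest 20 min value of the core. PUP3 had 0.27, 0.85, 0.77, 0.12 and 0.36, and 0.25 in the self-hybridisation, and so stayed above the pool throughout. PRE4 had -0.01, -0.07, -0.04, -1.53 and -0.83, and -0.03 in the self-hybridisation. It was level with the pool for the first 20 min and low at both later times, and its 120 min value, a 1.78-fold lower level, is the lowest of the set. PRE7 had 0.11, 0.13, 0.66, -0.56 and 0.00, and -0.20 in the self-hybridisation.

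The 6 cap ATPases, which unfold substrates and thread them into the core, were all above the pool at 10 and 20 min, at 0.33 to 0.66 and 0.37 to 0.66. RPT2, whose product helps open the gate of the core, had 0.18, 0.66, 0.37, -0.81 and -0.06 at 5, 10, 20, 60 and 120 min, and 0.05 in the self-hybridisation. RPT4 had 0.05, 0.33, 0.58, -1.66 and 0.19, and -0.11 in the self-hybridisation, the lowest ATPase gene at 60 min, at the 4.5 percentile. RPT6 had -0.03, 0.38, 0.38, 0.03 and 0.19, with no value in the self-hybridisation, and was the only ATPase gene not below the pool at 60 min. RPT1, RPT3 and RPT5 stood at -1.09, -1.01 and -0.28 at that time and at 0.42 to 0.51 at 10 min.

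Lid genes reached the lowest values of the set. The lid is the part of the cap that strips ubiquitin from substrates, through the deubiquitinating enzyme Rpn11 and its partner Rpn8. RPN8 had 0.20, 0.72, 0.62, -3.78 and -0.05 at 5, 10, 20, 60 and 120 min, and -0.12 in the self-hybridisation. Its 60 min level was 13.7-fold lower than in the pool and stood at the 0.2 percentile of that sample, between a 1.54-fold higher level at 20 min and a level near that of the pool at 120 min. RPN11 had 0.07, 0.39, 0.49, -1.49 and 0.25, and 0.73 in the self-hybridisation, which is larger than any of its positive values under aeration.

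RPN5, a scaffold subunit of the lid, had 0.12, 1.05, 0.30, -2.44 and 0.78 at 5, 10, 20, 60 and 120 min, and 0.40 in the self-hybridisation. It held both the highest value of the set at 10 min and the highest at 120 min, with a 5.44-fold lower level in between at 60 min, at the 1.3 percentile. RPN7 had -0.02, 0.52, 0.35, -1.98 and 0.24, and -0.22 in the self-hybridisation. RPN9 had 0.43, 0.81, 0.91, -1.42 and 0.27, with no value in the self-hybridisation, and was the highest member at 5 and at 20 min. The remaining lid genes were RPN3, at -1.24 at 60 min, RPN6 at -0.38 and RPN12 at -0.27. RPN12 was also the weakest of the lid at 10 and 20 min, at 0.09 and 0.16, and the lowest cap gene at 120 min, at -0.60.

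The cap base also holds 4 subunits that are not ATPases, namely the large scaffolds Rpn1 and Rpn2 and the ubiquitin receptors Rpn10 and Rpn13, and here scaffolds and receptors parted at 60 min. RPN1 had 0.03, 0.33, 0.51, -0.68 and -0.08 at 5, 10, 20, 60 and 120 min, and 0.42 in the self-hybridisation. RPN2 had -0.08, 0.28, 0.55, -1.70 and 0.22, and 0.23 in the self-hybridisation. RPN10 had 0.22, 0.30, 0.36, 0.63 and -0.36, and 0.87 in the self-hybridisation, more than at any aeration time. RPN13 had -0.01, 0.00, 0.06, 0.68 and -0.02, with no value in the self-hybridisation. The receptor genes were the only members besides RPN4 above 0.5 at 60 min, and RPN13 stood within 0.06 of the pool at every other time. Their 60 min percentiles were 75.8 for RPN10 and 78.2 for RPN13, against 20.1 for RPN1 and 4.3 for RPN2.

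Of the helpers, ECM29, which encodes a protein that tethers core and cap and checks their assembly, had 0.13, 0.99, 0.70, -1.61 and 0.30 at 5, 10, 20, 60 and 120 min, and 0.18 in the self-hybridisation. UMP1, the chaperone that is enclosed in the maturing core, had 0.15, 0.43, 0.60, -0.01 and -0.32, and -0.56 in the self-hybridisation. BLM10, an activator that binds the ends of the core in place of the cap, had 0.05, 0.55, 0.53, -0.49 and 0.15, and 0.75 in the self-hybridisation. BLM10 is carried by a pair of features, of which 1 has no value at 10 min or in the self-hybridisation. They stood at 0.67 and 0.38 at 20 min and at -0.35 and -0.64 at 60 min. They agreed in sign at these times and at 120 min (0.20 and 0.11), but not at 5 min (0.12 and -0.02).

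Apart from the feature pair of BLM10, the self-hybridisation gives the only view of noise at the level of one gene. Over the 29 members other than RPN4 that had a value there, it ran from -0.56 (UMP1) to 0.87 (RPN10), with an SD of 0.32. Its size exceeded the size of the same gene's ratio for 19, 8, 6, 5 and 10 of the 29 genes after 5, 10, 20, 60 and 120 min. For BLM10 and RPN10 it exceeded every aerated value. Being 1 array and not a condensed dye-swap pair, it is not a like-for-like measure of error for the aerated samples.

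Tests across the 5 times were made with limma on the 5771 genes with a value at all of them, so the separate flasks of the 5 times served as the replicates, and PUP1 was not tested. The first compared the mean of the late times (60 and 120 min) with the mean of the first 20 min (5, 10 and 20 min). This split was chosen with earlier results of these data known, so its p-values and counts are a description. Of the 34 subunit and helper genes 33 had a negative estimate, against 47.0% of all genes, and RPN13 was the exception. Their median was -0.68, with -0.92 for the cap and -0.58 for the core, beside 0.04 for all genes. None passed, and 0 of 5771 genes passed at an adjusted p under 0.05 in limma (percent called, 0.0). The smallest adjusted p among the members was 0.648.

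At an unadjusted p under 0.05, 10 members were lower late (PRE1, PRE3, PRE4, PRE10, RPN3, RPN8, RPN9, RPT2, RPT3 and RPT5), against 3.21% of all genes, and 0 were higher, against 2.74%. PRE4 averaged -1.18 at 60 and 120 min and -0.04 in the first 20 min, a difference of -1.14 ± 0.30 (SE, 2 and 3 samples; limma, unadjusted p = 0.00667, adjusted p = 0.648). RPN8 averaged -1.91 late and 0.51 in the first 20 min, a difference of -2.43 ± 0.95. PRE1 averaged -0.45 and 0.53, a difference of -0.98 ± 0.30. Both late values of 18 of the 34 genes lay below all of their first 3 values, against 11.7% of all genes, and for 0 of the 34 both lay above, against 12.4%. RPN4 averaged 0.36 late and 0.15 in the first 20 min, a difference of 0.21 ± 0.27 that did not pass (limma, adjusted p = 0.768). Without the 60 min sample the median of the members was -0.34, close to the core median of -0.39, and the cap no longer stood lower than the core. Without the 120 min sample the late mean is the 60 min sample alone, assumed to vary like the others, and 15 members and 1276 of 5771 genes (22.1%) passed.

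**Figure D4:**
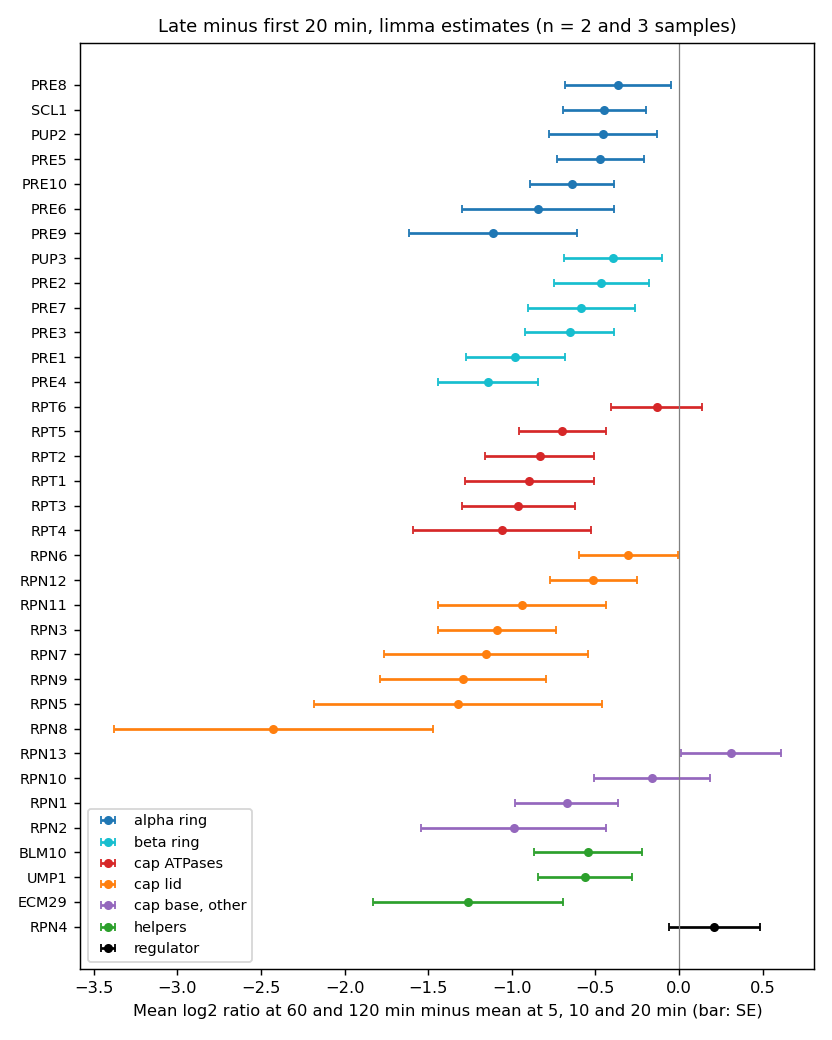
Limma estimates for the 35 genes tested, as the mean log2 ratio at 60 and 120 min minus the mean at 5, 10 and 20 min, with SE, grouped by role (2 late and 3 early samples). All but RPN13 and RPN4 have a negative estimate, RPN8 is farthest out at -2.43 with the widest bar, and none passed the test.

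In the test of a slope on log2 of the aeration time, 33 of 34 members had a negative slope, against 48.3% of all genes, and RPN13 was again the exception. The median slope was -0.14 per doubling of time, and it was -0.24 without the 5 min sample and -0.05, with 25 of 34 slopes negative, without the 60 min sample. The steepest slope was that of RPN8, at -0.48 ± 0.35 per doubling of time, and RPN4 had 0.05 ± 0.08. No member passed, and 1 of 5771 genes did in limma (0.0173%). At an unadjusted p under 0.05 there was 1 member, PRE4, at -0.28 ± 0.11 (adjusted p = 0.936), beside 1.59% of all genes with a negative slope. The mean over the 5 times joins values above the pool at 10 and 20 min with values below it at 60 min. It was near the pool for the members as a set. Their median was 0.05, with 22 of 34 above 0, against 50.5% of all genes, and none of them passed. Leaving out the 10 min sample moved this median to -0.05, leaving out 20 min to -0.07 and leaving out 60 min to 0.24. Without 60 min 32 of 34 members were above 0, against 48.3% of all genes, and none passed. At an unadjusted p under 0.05 (limma), 11 of the 34 were then higher, against 11.2% of all genes. With all 5 times, 0 of 5771 genes passed in limma, although 814 genes (14.1%) had an unadjusted p under 0.05. PUP3 was the member with the smallest p, at 0.47 ± 0.15 (SE, n = 5; limma, adjusted p = 0.218), and the 1 with an unadjusted p under 0.05, beside 7.9% of all genes with a positive mean. RPN4 averaged 0.24 ± 0.13 (adjusted p = 0.475), above the pool in 4 of 5 samples. With array weights, which count more variable samples for less, 2 of 34 members and 552 of 5771 genes passed, the smaller share being that of the members. The 2 members were PUP3 and RPN9, at 0.62 each (limma, adjusted p = 0.0167 and 0.0401). With samples scaled to the same spread none of the members passed. Their median was then 0.14, with 31 of 34 above 0, against 48.1% of all genes.

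Genes that work beside the proteasome but lie outside the symbol rule gave a mixed picture. SEM1, the small cap subunit also known as Rpn15, had -0.04, 0.40, 0.55, -1.75 and 0.07 at 5, 10, 20, 60 and 120 min, and -0.06 in the self-hybridisation. It was thus above the pool at 10 and 20 min and below it at 60 min, there at the 3.9 percentile, as were all 8 lid genes of the rule. SEM1 was counted in a list of 18 ubiquitin and Cdc48 partners, whose median was 0.09, 0.24, 0.31, -0.32 and -0.06 at those times. At 10 min 15 of the 18 were above 0, against 50.0% of all genes, and at 60 min 6 were, against 54.4%. Those 6 were HUL5 (0.56), UFD4 (0.54), UBC5 (0.48), DSK2 (0.47), RAD23 (0.15) and SHP1 (0.03). Of these, UFD4, UBC5 and SHP1 were above the pool at each time. UFD1, a cofactor of the Cdc48 segregase that pulls tagged proteins out of complexes, had 0.16, 0.49, 0.72, -1.06 and 0.06, and -0.75 in the self-hybridisation. UBA1, the ubiquitin-activating enzyme, had -0.04, 0.48, 0.57, -0.49 and -0.27, and UBC4, a ubiquitin-conjugating enzyme, had 0.09, 0.46, 0.59, -0.29 and -0.14. UBI4, the polyubiquitin gene induced by stress, had 0.16, 0.24, -0.24, -0.24 and 0.45, and UFD2, a ubiquitin chain elongation factor, was below the pool throughout, at -0.61 to -0.08. In the self-hybridisation UBA1, UBC4, UBI4 and UFD2 had -0.31, -0.22, 0.29 and 0.22.

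Dedicated assembly chaperones other than UMP1 number 8. PBA1, ADD66, IRC25 and POC4 are known to help build the core, and NAS2, NAS6, HSM3 and RPN14 the cap base. The median of these 8 genes was near the pool at 10 and 20 min, but single genes were not. They ran from -0.41 (NAS2) to 0.61 (RPN14) at 10 min and from -0.46 (NAS2) to 0.33 (NAS6) at 20 min. Their median was -0.05, -0.02, -0.06, 0.21 and -0.33 at 5, 10, 20, 60 and 120 min, and 4 of 8 were above 0 at 10 min, against 50.0% of all genes. NAS2 had -0.17, -0.41, -0.46, -0.62 and -0.69, below the pool at each time, and RPN14 had 0.48, 0.61, -0.18, 0.47 and 0.47. POC4, at 1.16, was the highest of them at 60 min, with 0.93 in the self-hybridisation. In the tests, 0 of 8 chaperone genes and 0 of 18 partner genes passed for any of the 3 comparisons (limma). For late minus first 20 min, at an unadjusted p under 0.05, 3 of the 18 partner genes and 0 of the 8 chaperone genes were lower, against 3.21% of all genes.

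Among the factors known to activate RPN4 transcription, YAP1, the regulator of the oxidant response, had 0.26, 1.16, 0.97, -1.87 and 0.00 at 5, 10, 20, 60 and 120 min, with no value in the self-hybridisation. Its 60 min value stood at the 3.2 percentile. The YAP1 transcript was thus above the pool at 10 and 20 min and below it at 60 min, as were 13.8% of all genes. RPN4 was at -0.01 at 10 min and at 0.55 at 60 min. Whether YAP1 has a part in the course of the subunit genes was not tested. PDR1, a drug resistance regulator, had 0.22, 0.64, 0.75, -0.64 and 0.40, but its self-hybridisation value was -1.41, larger in size than any of these. PDR3 had 0.19, -0.09, 0.22, -0.29 and -0.03, and HSF1, the heat shock factor, -0.04, 0.16, 0.02, -0.49 and -0.05. In the self-hybridisation PDR3 had 0.54, again larger in size than any of its aerated values, and HSF1 had 0.14. Of the genes for Rpn4 breakdown, UBR2, which encodes its ubiquitin ligase, had 0.17, 0.23, 0.26, -1.09 and 0.08, and MUB1, its partner, had -0.21, 0.64, 0.38, 0.60 and 0.60. RAD6, of the conjugating enzyme that works with them, had 0.02, -0.40, 0.21, 0.48 and 0.08. None of these 7 genes passed in any of the tests (limma, smallest adjusted p = 0.317). Arrays of RNA do not measure the Rpn4 protein or its activity.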

How the data were processed

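The deposited table of the series holds log ratios in natural log units for 6495 features and 6 samples, normalized by the authors, who per the series' design text condensed the dye-swap arrays of each aeration time into 1 set of values. The base is not labelled: the lowest deposited value, -4.6051702, equals the natural log of 0.01, and on that evidence values were divided by 0.693147 to give log2 ratios. For the array software, background correction, normalization method and filters, the sources used here give nothing, and the signal behind each ratio is unknown, so the number of arrays limits the precision. Columns had medians of -0.009 to 0.063 in the deposited unit. The direction is aerated over pool, from the sample titles. The lowest correlation between samples over genes was -0.108, between the 20 min sample and the self-hybridisation. Among the aerated samples the lowest was 0.025, between 5 and 60 min.

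Of the features, 5754 had 1 symbol in the platform annotation, 0 had several and 741 had none, and all 5754 matched the R64 reference table by gene identifier with 0 symbols changed. Features of a gene were averaged. The symbol rule uses no measured value, but the set, the gene lists and the split of late against first 20 min were chosen with earlier results of these data known. All members are named, and the other lists are named in part. Counts use a 2-fold threshold, and percentiles are ranks within a sample. Tests used limma 3.58.1 in R 4.3.3, two-sided, with Benjamini-Hochberg adjustment over all 5771 genes. They treat the 5 flasks as replicates, and the test of the mean leaves out the spread of the shared pool. The tests were run on simulated data first. Promoter sequences were not used here. Alternatives were centring, equal spread, array weights, missing values allowed, each time left out, the log base, features kept apart and genes measured in all samples.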

Additional observations from a re-analysis of the deposited data

How the results depend on the processing

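Of 214 alternative values of the results, 191 were counted as kept. Medians and single values were kept within the spread given for them, and RPN4 in the tests on its side of the threshold. Counts were kept when equal to the main count or within a set ratio of it. For genes with both late values below the first 3, 21 beside 18 was thus kept. A turn in sign was recorded only for RPN4 in the tests, where there were 0. Medians near 0 could turn in sign and still be counted as kept. The members' median mean ratio went from 0.05 to -0.05 without 10 min and to -0.07 without 20 min. The cap median at 120 min went from 0.02 to -0.06 among genes measured in all 6 samples. The count of genes called for the mean was 65 once all samples had an equal spread, 552 with array weights (2 of them members, with a median of the members of 0.26) and 0 to 25 with 1 time left out, where 13 passed without 5 min and 25 without 60 min. For the slope it was 0 with samples centred, with array weights or with missing values allowed, 2 with equal spread and 0 to 1 with 1 time left out. For late minus first 20 min it was 0 to 1276 with 1 time left out, and 0 to 15 members passed, the highest count each time without 120 min. The median of the members in that test ran from -0.92 without 120 min to -0.34 without 60 min. The count of genes with both late values below the first 3, chosen as a check after the data were seen, was 21 from 120 min alone and 30 from 60 min alone. With samples scaled to the same spread the cap median at 60 min was -0.44, and 2 members were 2-fold from the pool there. The core median at 60 min was then -0.21 and RPN4 0.23, below its 0.29 at 20 min. Read as log2 values, the table has 9 members 2-fold from the pool at 60 min and 1 at 10 min, and 1 at 10 min among genes measured in all 6 samples. With 1 time left out, the members' median mean ratio ran from -0.07 without 20 min to 0.24 without 60 min. It was 0.14 with equal spread. RPN4 kept its sign in each test under each alternative and did not pass in any of them. No paired analysis was possible because each aeration time is 1 sample and the labels give no replicate numbers.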
